A study of Homo sapiens with 16 samples.

Results

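Ketamine alone was compared directly with estradiol (E2) alone in cultures of HMC3, an immortalised line derived from human microglia. The comparison took the 2 libraries of cells given 400 nM ketamine and the 2 libraries of cells given 0.1 nM E2, which are 4 of the 16 libraries of the study. Vehicle cells, also 2 libraries, served as the common reference, and the remaining 10 libraries received hydroxynorketamine (HNK) metabolites of ketamine, alone or with E2, or ketamine with E2. Per the study's methods, which give this for ketamine and its metabolites, cells were held for 24 h in medium with charcoal-stripped serum, which removes steroids, and for 24 h without serum, and were then treated for 24 h in medium free of serum and phenol red. The compounds were given at different doses, so a difference between them is a difference between these exposures. All groups came from this 1 line. Nothing in the labels or methods tells if the paired libraries of a group were grown as separate cultures, so the p-values measure only the spread between these libraries, which may be technical.

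Ketamine is an anaesthetic and rapid-acting antidepressant that blocks the ion channel of NMDA-type glutamate receptors. E2 is a steroid hormone that enters cells and binds the nuclear receptors ESR1 and ESR2, which act on transcription, and it also signals through the membrane receptor GPER1. Microglia are the resident immune cells of the brain, and type I interferon, which acts through JAK kinases and STAT transcription factors, induces antiviral and antigen presentation genes in them. The question that this comparison addresses is which transcripts of these cells distinguish exposure to the drug from exposure to the hormone.

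The ketamine libraries held 81646165 and 79389018 counts, the E2 libraries 62267790 and 58865355, and the 16 libraries together ranged from 55300614 to 81646165. Ketamine was therefore the more deeply sequenced condition. After all libraries had been thinned to the smallest total, 2491 genes were called higher with ketamine and 2851 lower, against 2582 and 2962 at full depth. Per the study's methods, pairs of reads were counted. Of the low counts (1 to 9), however, 63.3% to 67.7% were even numbers, so a count of 3 may stand for fewer pairs, and why even numbers prevailed was not tested. With all counts halved, 2674 genes were called higher and 3039 lower. The cell type label was checked against 14 genes that define microglia. Of these, 3 passed the filter on low counts, 8 had under 3 counts in each of the 4 libraries, and C1QA and FCGR3A were at 0 in all 16 libraries. Their summed level was 5.48 and 5.47 CPM (counts per 1000000 library counts) with ketamine and 3.51 and 3.95 CPM with E2. The 11 defining markers that did not pass were not tested. The 11 fibroblast and pericyte markers summed to 6492 and 6578 CPM with ketamine and 7485 and 7523 CPM with E2.

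A total of 5544 of 16004 genes tested differed between ketamine and E2 at an adjusted p under 0.05 (quasi-likelihood test of edgeR, p adjusted by the method of Benjamini and Hochberg), and such genes are referred to as called. At an unadjusted p under 0.05 there were 6717. With ketamine, 2582 genes (16.1%) were higher than with E2 and 2962 genes (18.5%) were lower. Most differences were small. The median absolute log2 fold change of the called genes was 0.22, and 90.4% of them were under 0.5. A log2 fold change of at least 1 was reached by 77 genes (0.481%) in the higher direction and by 39 (0.244%) in the lower. Of these 116 genes, 97 had a mean under 1 CPM and 4 had a mean of at least 5 CPM. The 4 libraries did not overlap between the treatments for 65.9% of the genes tested. With 2 libraries against 2, the smallest two-sided p of an exact permutation test is 0.333, so the tests drew on a spread estimated from all 8 conditions together. Where none of the tested members of a list is given as higher or as lower below, none had an unadjusted p under 0.05 in that direction and none was called by DESeq2, unless stated.

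**Figure D1:**
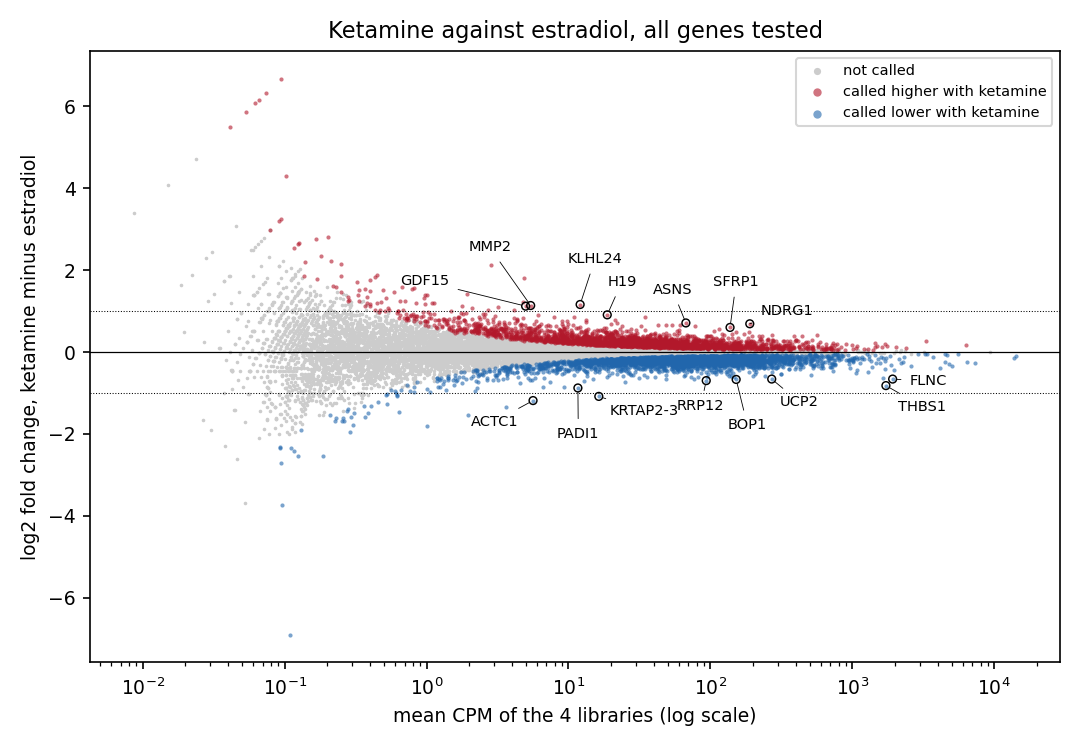
Each point is 1 of 16004 genes, with its mean level over the 4 libraries on a logarithmic x axis (CPM) and its log2 fold change, ketamine minus E2, on the y axis. Red and blue points are called higher and lower with ketamine, the dotted lines mark a log2 fold change of 1 in each direction, and circles mark genes described in the text. Nearly all points beyond the dotted lines lie at low levels.

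The treatments lay closer to each other than to vehicle. In log2 CPM over the 16004 genes, the distance between the means of ketamine and E2 was 42.4, which was the third smallest of 28 pairs of conditions, whereas ketamine lay 63.8 from vehicle and E2 lay 62.5 from it. The smallest distance between any pair of conditions was 35.8 and the largest 87.5. Single ketamine and E2 libraries were 51.8 to 52.5 apart, compared with 39.1 between the ketamine replicates and 46.6 between the E2 replicates. Relative to vehicle, 4291 genes (26.8%) were called higher and 5201 (32.5%) lower with ketamine. With E2, 4780 genes (29.9%) were called higher and 5227 (32.7%) lower. These comparisons share the vehicle libraries, and their values are set side by side below only for genes and lists.

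The fold change between ketamine and E2 followed the GC content of the exons. Genes were divided into 5 groups of equal size by GC content. Of the group with the lowest GC content, 24.4% were called higher and 5.76% lower with ketamine, and of the group with the highest, 8.72% were called higher and 34.0% lower. Across 15358 annotated genes, which are not independent replicates, Spearman's rho between log2 fold change and GC content was -0.261, and it was -0.030 once GC content and exon length had been corrected for in every library. With that correction 1730 genes were called higher and 3689 lower, so the share of higher genes among those called was 31.9%, against 46.6% without it. Of the 5544 genes called, 4308 were called in the same direction with the correction and 86 had a log2 fold change of the opposite sign. What the libraries and what the cells contributed to this trend was not tested. The counts for each list below are to be read beside those of all genes tested. These are 16.1% higher and 18.5% lower as reported, and 1730 higher and 3689 lower of 16004 with the correction. The median log2 fold change of all genes tested was 0.0067 as reported and -0.036 with the correction.

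**Figure D2:**
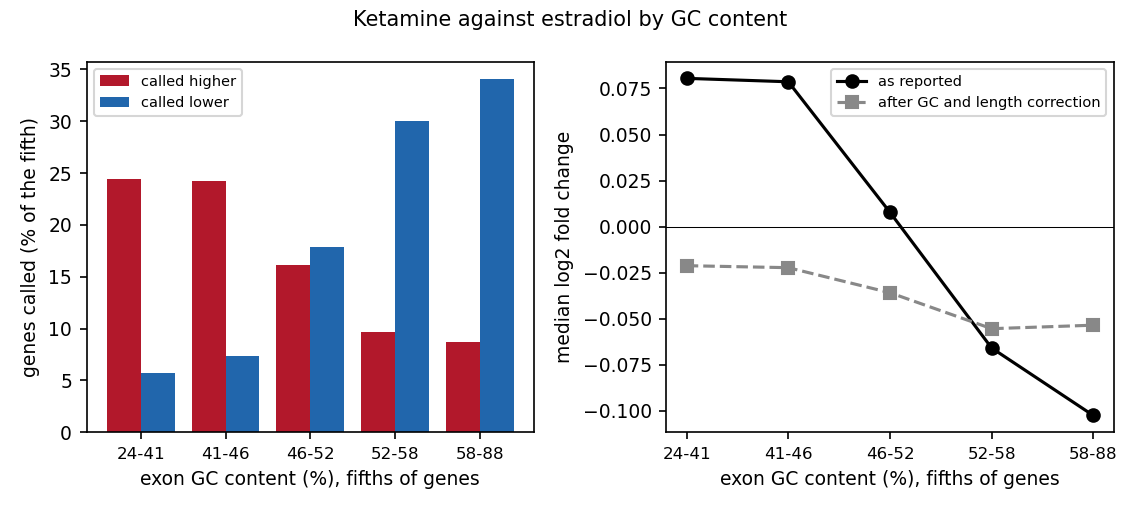
Genes were divided into 5 groups by the GC content of their exons (x axis, percent). The left panel gives the percentage of each group called higher (red) or lower (blue) with ketamine than with E2, and the right panel gives the median log2 fold change before and after the correction for GC content and length. The share called lower rose from 5.76% to 34.0% between the lowest and the highest group, and the median log2 fold change ran from 0.081 to -0.103.

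Among genes with a mean of at least 5 CPM, the largest differences in favour of ketamine were in KLHL24, MMP2, H19 and COL4A4. KLHL24 (chr3:183353398-183402307, GRCh37) encodes an adaptor of a cullin ubiquitin ligase. It was at 16.9 and 16.5 CPM with ketamine, 8.33 and 6.58 CPM with E2 and 10.7 and 11.5 CPM with vehicle. Both ketamine libraries lay above vehicle and both E2 libraries below it, and the log2 fold change of ketamine over E2 was 1.16 (SE 0.093, adjusted p = 1.44e-14). MMP2 (chr16:55423612-55540603), a secreted gelatinase, was at 7.73 and 7.16 CPM with ketamine, 3.36 and 3.41 CPM with E2 and 2.31 and 2.03 CPM with vehicle, a log2 fold change of 1.14 (SE 0.13). For MMP2 the groups did not overlap and both treatments lay above vehicle. H19 (chr11:2016396-2025782), an imprinted long noncoding RNA, was at 23.2 and 25.8 CPM with ketamine and at 13.3 and 12.8 CPM with E2 (log2 fold change 0.91, SE 0.072). In bulk RNA a smaller share of cells with a transcript and less of it per cell cannot be told apart, which holds for each difference given here.

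Among the other leading genes that favoured ketamine, COL4A4, a chain of basement membrane collagen, differed by a log2 fold change of 0.91, and EFEMP1, a fibulin of the extracellular matrix, by 0.79. CPZ, a carboxypeptidase that binds Wnt proteins, was at 14.4 and 13.7 CPM with ketamine, 7.46 and 8.0 CPM with E2 and 4.53 and 4.01 CPM with vehicle. CPZ shares 2013 of its 3447 exon bases with GPR78 on the same strand, and the strandedness of the counting is not given in the sources used here, so reads of the shared part cannot be assigned to either gene. Transcriptional regulators were represented by TLE2, a Groucho-type corepressor, with a log2 fold change of 0.86, and by MXI1, an antagonist of MYC, with 0.77. WDR66, a protein with WD repeats, was at 43.2 and 45.5 CPM with ketamine and at 25.6 and 23.3 CPM with E2. The remaining 3 of the 12 leading genes were APOL1, an apolipoprotein that lyses trypanosomes (0.77), BTN3A2, a butyrophilin recognised by T cells (0.77), and REPS2, an endocytosis protein (0.76). All 12 were called when any 1 of the 4 libraries was left out, and in 9 of the 12 the ketamine mean was the highest of the 8 conditions.

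At higher abundance (a mean of at least 100 CPM), NDRG1, SFRP1, P4HA1, CCNG1 and PAM had the largest differences in favour of ketamine. NDRG1, a gene induced by hypoxia and cell stress, was at 234 CPM in both ketamine libraries, at 142 and 148 CPM with E2 and at 130 and 127 CPM with vehicle (log2 fold change 0.69, SE 0.029). In the other 4 the ketamine libraries were near or below vehicle while the E2 libraries were lower. SFRP1, a secreted inhibitor of Wnt signalling, was at 167 and 165 CPM with ketamine, 109 CPM in both E2 libraries and 159 and 162 CPM with vehicle. P4HA1, a catalytic subunit of collagen prolyl hydroxylase, was at 138 and 137 CPM with ketamine, 91.9 and 93.7 CPM with E2 and 181 and 184 CPM with vehicle. CCNG1, a cyclin that p53 induces, and PAM, the enzyme that amidates peptide hormones, each differed by a log2 fold change of 0.50.

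ACTC1, KRTAP2-3, PADI1, AMZ1, CYP24A1 and THBS1 led the genes that were lower with ketamine than with E2. ACTC1 (chr15:35082308-35087790), the cardiac form of alpha-actin, was at 2.93 and 3.95 CPM with ketamine, 7.69 and 7.94 CPM with E2 and 5.49 and 5.92 CPM with vehicle (log2 fold change -1.18, SE 0.11, adjusted p = 4.6e-12). The vehicle libraries lay between the treatments. KRTAP2-3, a keratin-associated protein with near-identical neighbouring copies, so that its count is uncertain, was at 10.8 and 10.2 CPM with ketamine, 22.4 and 22 CPM with E2 and 23.8 and 24 CPM with vehicle. PADI1, which converts protein arginine to citrulline, was at 7.91 and 8.53 CPM with ketamine and at 15.4 and 14.7 CPM with E2, where the E2 libraries lay with vehicle at 15.7 and 14.3 CPM. CYP24A1, which inactivates vitamin D, had a log2 fold change of -0.85 and AMZ1, a metalloprotease, one of -0.86.

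THBS1 combined a high level with a large difference. THBS1 (chr15:39873280-39891667) encodes thrombospondin-1, a secreted matrix glycoprotein that activates TGF-beta. It was at 1240 and 1254 CPM with ketamine, 2214 and 2185 CPM with E2 and 1872 and 1905 CPM with vehicle. Ketamine thus lay below vehicle and E2 above it, with a log2 fold change between them of -0.82 (SE 0.019, adjusted p = 3.55e-35). THBS1 shares 448 of its 9158 exon bases with FSIP1 on the opposite strand. Among the other 6 leading genes were TNFSF9, the ligand of the T cell receptor 4-1BB (log2 fold change -0.74), RRP12, a factor of ribosomal RNA processing (-0.70), OSGIN1, a growth inhibitor induced by oxidative stress (-0.68), and DUSP2, a phosphatase of MAP kinases (-0.68). FAM13B differed by -0.72, and the antisense transcript NOP14-AS1, of which 737 of 8163 exon bases overlap NOP14, by -0.70. All 12 were called when any 1 of the 4 libraries was left out. The E2 mean was the highest of the 8 conditions in 6 of them, and the ketamine mean the lowest in 3.

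FLNC, which encodes the actin cross-linker filamin C, was at 1471 and 1509 CPM with ketamine, 2384 and 2323 CPM with E2 and 2068 and 2047 CPM with vehicle. UCP2, a carrier of the inner mitochondrial membrane, was at 210 and 209 CPM with ketamine and at 332 and 330 CPM with E2 (log2 fold change -0.66). In both abundant genes the replicates of a treatment differed far less than the treatments did.

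**Figure D3:**
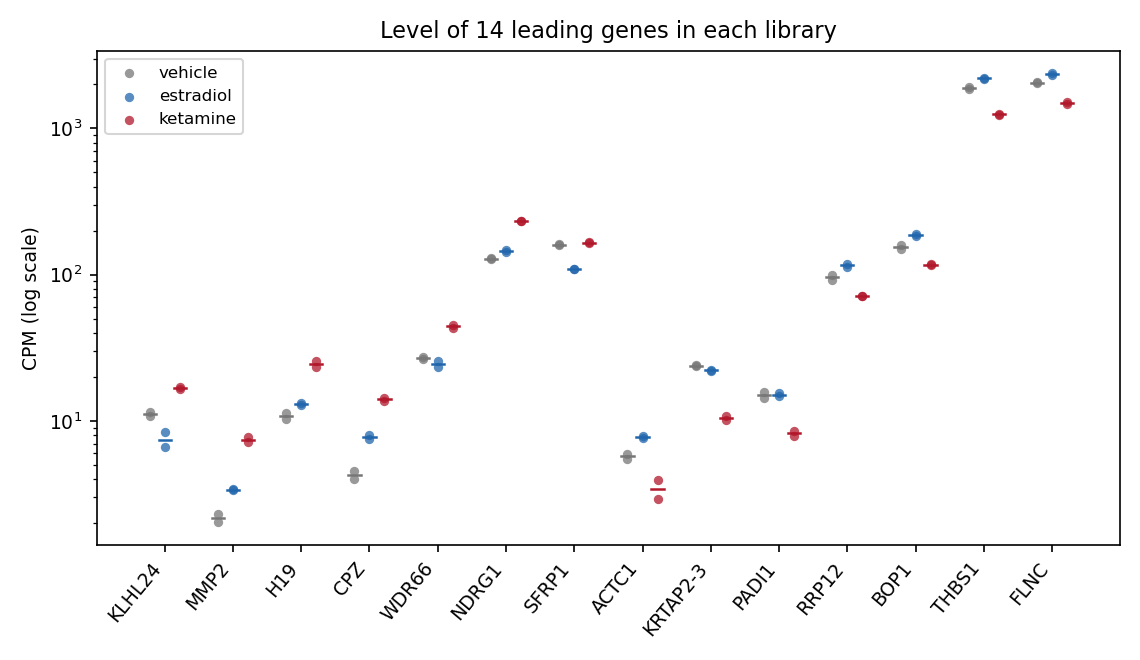
Points give the level of 14 genes in each library (CPM, logarithmic y axis) with vehicle (grey), E2 (blue) and ketamine (red), and short lines give the means of 2 libraries. The ketamine and E2 libraries do not overlap for any gene shown, while the place of vehicle varies, from beside E2 (PADI1) to beside ketamine (SFRP1).

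Genes of the type I interferon response were called higher with ketamine more often than lower. Of 39 members tested, 24 were called higher and 2 lower than with E2, with a median log2 fold change of 0.25 against 0.0067 over all genes tested. With the GC and length correction the counts were 19 and 1 and the median was 0.22, and without 1 of the 4 libraries 17 to 20 were called higher. The lower calls fell to 1 without ketamine replicate 2 or without E2 replicate 2. Against vehicle, the median of the list was 0.58 with ketamine (23 called higher, 4 lower) and 0.29 with E2 (17 higher, 8 lower). This pathway was singled out in the study of these same libraries, so its direction is not independent evidence.

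Antiviral effectors held the largest differences, with 14 of 24 tested members called higher and none lower. MX1, a dynamin-like GTPase that blocks viruses, was at 2.84 and 3.76 CPM with ketamine, 2.27 and 1.32 CPM with E2 and 1.41 and 1.85 CPM with vehicle (log2 fold change 0.87, SE 0.17, adjusted p = 7.39e-05). Its exons overlap those of TMPRSS2 on the opposite strand over 562 bases. OAS1, which makes the activator of RNase L, was at 1.44 and 1.26 CPM with ketamine, 0.673 and 0.526 CPM with E2 and 0.327 and 0.302 CPM with vehicle, so that vehicle was lowest, E2 intermediate and ketamine highest, without overlap. IFIT2, which binds viral RNA, differed by a log2 fold change of 0.95, and IFITM1, which hinders viral entry, by 0.68 (adjusted p = 0.0483, not called without ketamine replicate 1 or either E2 replicate). MX2 was not called (log2 fold change 0.76, adjusted p = 0.0546), with 1.05 and 1.08 CPM under ketamine and 0.385 and 0.882 CPM under E2.

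UBA7, which activates the ubiquitin-like modifier of the interferon response, had the largest difference among members with a mean of at least 1 CPM. It was at 5.54 and 5.49 CPM with ketamine, 2.47 and 2.95 CPM with E2 and 1.31 and 1.91 CPM with vehicle (log2 fold change 1.03, SE 0.13, adjusted p = 8.63e-09). Of 5 tested members of this conjugation system, 4 were called higher and none lower, but 1 was without ketamine replicate 2, and 2 were without ketamine replicate 1 or without E2 replicate 1. Of 8 sensors and transcription factors, 4 were called higher, while IRF1 and IRF3, both interferon regulatory factors and named here after their values were seen, were called lower with log2 fold changes of -0.26 and -0.14. IRF3 was not called after the GC and length correction (-0.10, adjusted p = 0.0578). Both receptor chains were called higher, and neither was after the GC and length correction or without E2 replicate 2, and 1 was without any other of the 4 libraries.

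Interferon acts on promoters through the interferon-stimulated response element, searched here on both strands as GAAA, any 2 bases, and GAAA again. In RefSeq promoter windows of 300 bases (250 before to 50 after the start, GRCh38.p14), it occurred in 17 of the 26 tested interferon members that have a window, against 3.65% of all 27305 windows. Among the 20 members called higher with a window, 14 held it. MX1 and IFITM1 are shown because they carried large differences, and B2M because it links the list to antigen presentation, with each match in capitals.
MX1 promoter, chr21:41420308-41420607, + strand: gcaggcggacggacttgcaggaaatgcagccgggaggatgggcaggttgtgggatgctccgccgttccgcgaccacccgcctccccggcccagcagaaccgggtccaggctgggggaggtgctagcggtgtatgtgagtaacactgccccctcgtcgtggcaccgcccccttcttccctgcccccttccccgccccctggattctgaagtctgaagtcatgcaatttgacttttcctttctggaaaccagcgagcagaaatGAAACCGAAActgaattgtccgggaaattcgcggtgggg
IFITM1 promoter, chr11:313790-314089, + strand: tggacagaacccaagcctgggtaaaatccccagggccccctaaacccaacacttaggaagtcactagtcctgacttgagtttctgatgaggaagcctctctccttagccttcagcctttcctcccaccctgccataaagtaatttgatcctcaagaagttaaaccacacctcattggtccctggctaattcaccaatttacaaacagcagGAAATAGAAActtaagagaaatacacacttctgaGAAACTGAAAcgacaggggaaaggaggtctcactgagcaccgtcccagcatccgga
B2M promoter, chr15:44711267-44711566, + strand: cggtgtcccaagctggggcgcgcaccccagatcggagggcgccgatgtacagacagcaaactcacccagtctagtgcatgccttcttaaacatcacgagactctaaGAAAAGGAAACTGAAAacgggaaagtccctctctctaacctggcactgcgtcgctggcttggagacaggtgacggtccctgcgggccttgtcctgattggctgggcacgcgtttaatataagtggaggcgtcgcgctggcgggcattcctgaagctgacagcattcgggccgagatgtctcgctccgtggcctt
MX1 held 1 match, and IFITM1 and B2M each held 2, which overlap in B2M. The STAT dimer site, searched as TTCNNNGAA on both strands, occurred in 7 of the 26 windows against 7.88% of all windows. A match describes the letters of a window and is not a measured binding site.

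Of 19 genes of antigen presentation by MHC class I, 9 were called higher with ketamine and none lower, and the median log2 fold change was 0.15. After the GC and length correction 1 was called lower. B2M, the light chain of every class I molecule, was at 223 CPM in both ketamine libraries, 174 and 168 CPM with E2 and 223 and 220 CPM with vehicle (log2 fold change 0.38, SE 0.028). The ketamine libraries lay with vehicle, and E2 lay below both. PSMB9, a subunit of the immunoproteasome, was at 6.14 and 5.88 CPM with ketamine and 4.07 and 3.98 CPM with E2. The peptide-trimming enzymes ERAP2 and ERAP1 differed by log2 fold changes of 0.51 and 0.42. Of the 15 members with a promoter window, 7 held the interferon-stimulated response element, against 3.65% of all windows. It was present in 3 of the 8 windows of members called higher, so most of the 7 were members not called.

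Of 13 complement genes tested, 7 were called higher and 1 lower, with a median log2 fold change of 0.39, and 7 and 2 after the GC and length correction. C1R, a protease that starts the classical pathway, was at 10.6 and 11.7 CPM with ketamine, 7.64 and 6.70 CPM with E2 and 3.86 and 3.99 CPM with vehicle. C1S, its partner protease, differed by a log2 fold change of 0.55 (SE 0.15), SERPING1, the inhibitor of both, by 0.54 and C1RL by 0.50. For these genes E2 lay between vehicle and ketamine. C1R and C1RL share 672 exon bases on the same strand. The member called lower was CFD, named after its values were seen, with a log2 fold change of -0.22.

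Of 31 JAK-STAT components tested, 11 were called higher and 2 lower with ketamine, with a median log2 fold change of 0.09. These were 35.5% and 6.45%, beside 16.1% and 18.5% of all genes. After the GC and length correction, which called 1730 of all 16004 genes higher and 3689 lower, 8 members were called higher and 2 lower. The median was then 0.01, beside -0.036 over all genes with the same correction. Without ketamine replicate 2, 7 were called higher and none lower, and the lower calls were also lost without E2 replicate 2 and under upper-quartile scaling. STAT2, which acts downstream of the interferon receptor, was at 114 and 118 CPM with ketamine and 94.0 and 92.0 CPM with E2. STAT3, which carries signals of the interleukin-6 family, was at 156 and 159 CPM with ketamine, 152 and 150 CPM with E2 and 133 and 134 CPM with vehicle, and the difference between the treatments was not called (log2 fold change 0.06, SE 0.029, adjusted p = 0.0849). JAK3, OSMR, the receptor of oncostatin M, and IL13RA1, a receptor chain for interleukin-13, were called higher with log2 fold changes of 0.40, 0.35 and 0.34. JAK3 was called with all libraries and without ketamine replicate 1, but not without any other library.

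**Figure D4:**
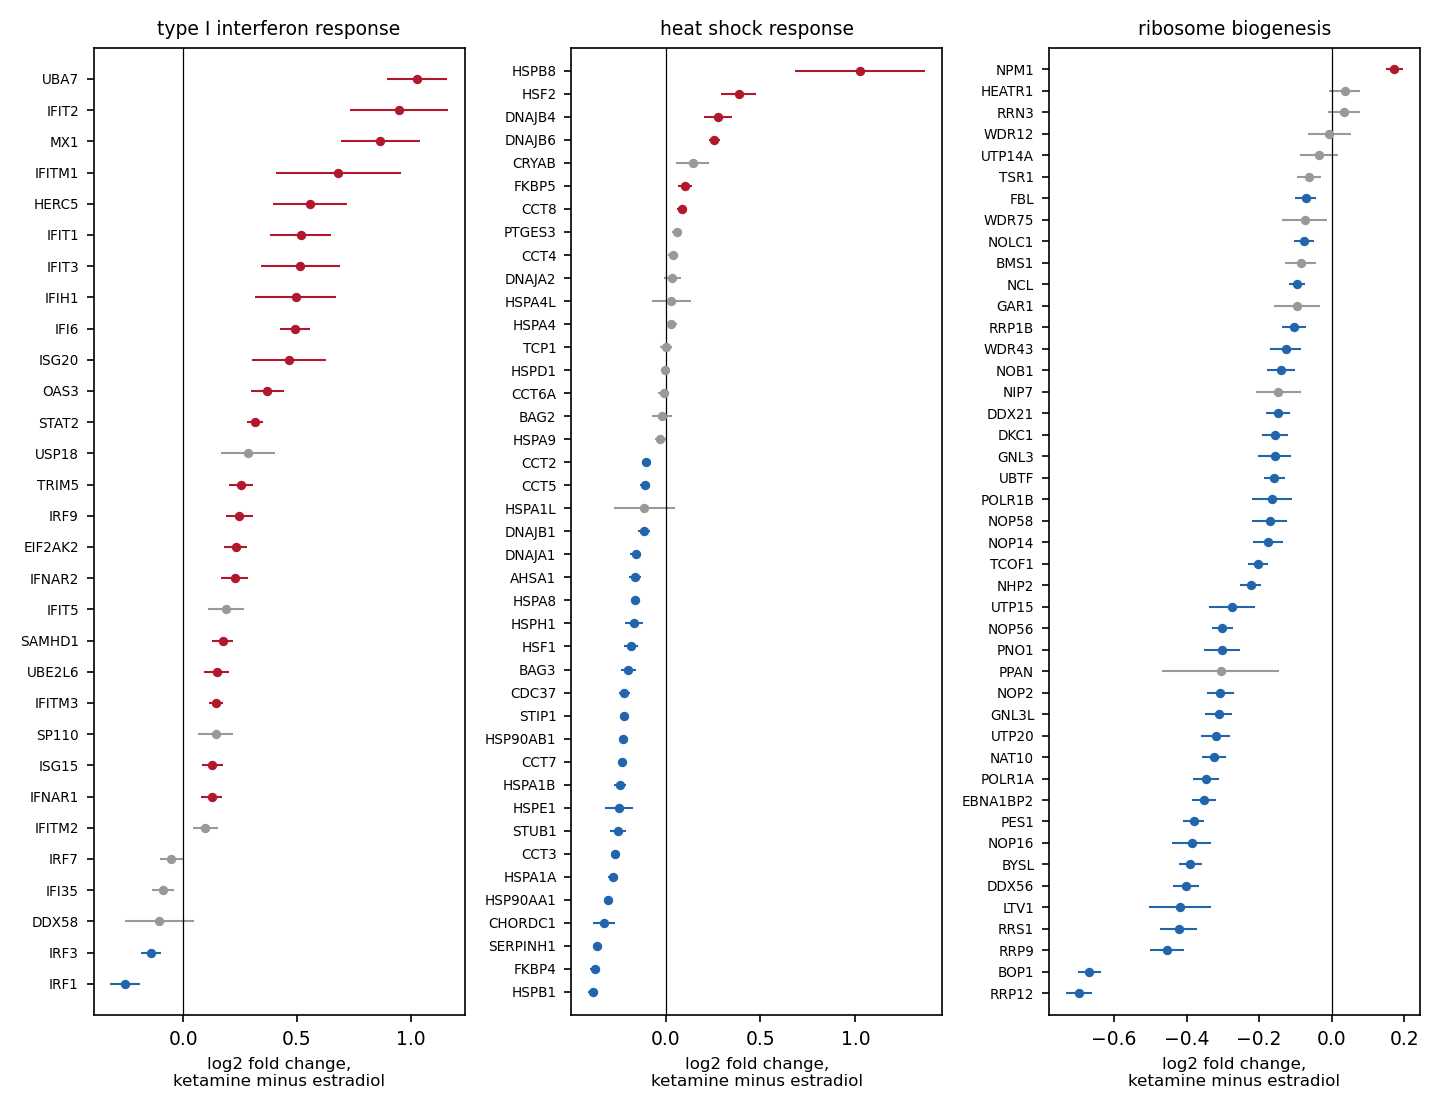
Log2 fold change of ketamine minus E2 (x axis) with its standard error for the interferon members with a mean of at least 1 CPM (1 such member is not shown), the heat shock genes and the ribosome biogenesis genes that were tested. Red members were called higher with ketamine, blue members lower, and grey members were not called. UBA7 leads the interferon genes at 1.03, while HSPB1 at -0.38 and RRP12 at -0.70 have the lowest values of their lists.

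Genes of the heat shock response were called lower with ketamine more often than higher. They encode chaperones that fold new or damaged proteins, and factors such as HSF1 that drive their genes through heat shock elements. Of 41 members, 6 were called higher and 23 lower, with a median log2 fold change of -0.11. These were 14.6% and 56.1%, beside 16.1% and 18.5% of all genes. After the GC and length correction, which raised the lower calls over all genes from 2962 to 3689, 4 members were higher and 29 lower. Without ketamine replicate 2, 3 were called higher and 22 lower. HSPB1, a small heat shock protein, was at 540 and 543 CPM with ketamine, 698 and 714 CPM with E2 and 531 and 507 CPM with vehicle (log2 fold change -0.38, SE 0.027, adjusted p = 2.18e-16). Against vehicle its log2 fold change was 0.06 with ketamine and 0.44 with E2. SERPINH1, the collagen chaperone of the endoplasmic reticulum, showed the same arrangement at 396 and 395 CPM with ketamine, 505 and 510 CPM with E2 and 396 and 393 CPM with vehicle. FKBP4, an immunophilin in complexes of HSP90 with steroid receptors, was at 190 and 191 CPM with ketamine, 242 and 250 CPM with E2 and 243 CPM in both vehicle libraries.

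Of 10 genes of HSP90 and its cochaperones, 8 were called lower and 1 higher, and the higher call was lost after the GC and length correction and without either ketamine replicate or E2 replicate 2. HSP90AA1, the inducible HSP90, named after its values were seen, was at 662 and 668 CPM with ketamine, 829 and 812 CPM with E2 and 1717 and 1726 CPM with vehicle. CHORDC1, an HSP90 cochaperone, was at 21.1 and 19.9 CPM with ketamine, 26.4 and 24.9 CPM with E2 and 60.2 and 60.7 CPM with vehicle (log2 fold change -0.32, SE 0.057). Both treatments thus lay far below vehicle for these 2 genes, and ketamine lay lower than E2. Of 8 HSP70 and HSP110 chaperones 4 were called lower and none higher, and of 10 chaperonin subunits 5 were called lower and 1 higher. After the GC and length correction 9 chaperonin subunits were called lower and none higher, and the higher call was also lost without E2 replicate 1. Against vehicle, the median of the heat shock list was -0.40 with ketamine and -0.45 with E2. HSF2, another heat shock factor, was higher with ketamine (log2 fold change 0.39), as were 5 other members, and its call was lost without ketamine replicate 2 (0.28).

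The heat shock element was searched as GAANNTTC, which reads the same on both strands. It occurred in 12 of the 36 promoter windows of the list, against 6.87% of all windows, in 7 of the 20 windows of members called lower and in 2 of the 6 of members called higher. HSPB1 and CHORDC1 are shown as the small heat shock protein and the cochaperone with large differences, with matches in capitals.
HSPB1 promoter, chr7:76302423-76302722, + strand: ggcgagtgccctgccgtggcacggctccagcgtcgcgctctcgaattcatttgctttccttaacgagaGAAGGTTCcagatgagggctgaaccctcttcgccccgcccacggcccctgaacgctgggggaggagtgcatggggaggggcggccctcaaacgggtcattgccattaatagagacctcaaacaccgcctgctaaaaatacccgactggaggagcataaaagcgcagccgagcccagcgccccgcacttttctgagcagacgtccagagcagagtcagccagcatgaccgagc
CHORDC1 promoter, chr11:90223000-90223299, - strand: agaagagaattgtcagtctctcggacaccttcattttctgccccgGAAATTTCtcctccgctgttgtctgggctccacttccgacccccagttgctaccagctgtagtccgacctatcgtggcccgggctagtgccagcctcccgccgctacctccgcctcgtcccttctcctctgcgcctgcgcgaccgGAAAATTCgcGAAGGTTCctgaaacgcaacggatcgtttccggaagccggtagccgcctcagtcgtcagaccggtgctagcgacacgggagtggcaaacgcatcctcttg
HSPB1 held 1 match and CHORDC1 held 3 in these RefSeq windows.

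Targets of the integrated stress response, in which the factor ATF4 raises genes of amino acid supply, were divided. Of 49 members, 25 were called higher and 13 lower with ketamine, with a median log2 fold change of 0.13, and 21 and 13 after the GC and length correction. Genes of amino acid synthesis and transport made up 11 of the higher and 5 of the lower members, while 4 of the 12 sensors and factors were higher and 6 lower, and 2 and 6 after the correction. ASNS, asparagine synthetase, was at 83.9 and 82.8 CPM with ketamine, 51.3 and 50.5 CPM with E2 and 55.9 and 53.7 CPM with vehicle (log2 fold change 0.71, SE 0.036, adjusted p = 2.73e-21). DDIT4, an inhibitor of mTORC1, was at 94.0 and 95.3 CPM with ketamine and at 61.1 and 60.5 CPM with E2. For ASNS and DDIT4 the E2 libraries lay near vehicle and the ketamine libraries well above. GDF15, a secreted stress cytokine, was at 6.62 and 7.06 CPM with ketamine, 3.46 and 2.81 CPM with E2 and 1.55 and 1.86 CPM with vehicle (log2 fold change 1.12, SE 0.12). NUPR1, a small stress-induced nuclear protein, also differed by 1.12.

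The composite element of C/EBP and ATF factors, searched as TGATGNAA on both strands, occurred in 5 of 32 windows of this list, against 3.67% of all windows. It was present in 2 of the 15 windows of members called higher and in 2 of the 11 of members called lower. ASNS is shown for its large difference, with its 1 match in capitals.
ASNS promoter, chr7:97872359-97872658, - strand: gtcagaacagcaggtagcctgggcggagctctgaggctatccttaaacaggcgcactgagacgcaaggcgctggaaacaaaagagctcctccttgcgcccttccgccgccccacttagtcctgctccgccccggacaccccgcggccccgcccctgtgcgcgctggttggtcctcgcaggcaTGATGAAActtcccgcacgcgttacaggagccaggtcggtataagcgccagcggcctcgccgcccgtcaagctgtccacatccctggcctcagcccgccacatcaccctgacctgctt
Genes of the unfolded protein response of the endoplasmic reticulum were called higher in 13 and lower in 5 of 23 cases, and in 5 and 5 after the GC and length correction, with medians of 0.10 and -0.003. Over all genes the corrected median was -0.036. The lower calls were 2 without ketamine replicate 2 or without E2 replicate 1, and 3 without either of the others. DNAJB9, a cochaperone of that compartment, was at 8.15 and 8.79 CPM with ketamine and 5.25 and 5.63 CPM with E2 (log2 fold change 0.64), while SDF2L1 was lower with ketamine (-0.33). With vehicle DNAJB9 was at 7.62 and 8.37 CPM, so the ketamine libraries lay near vehicle and the E2 libraries below it. Against vehicle, 3 members of the list were called higher and 13 lower with ketamine, and 7 and 13 with E2.

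Targets of p53 were called higher in 9 and lower in 2 of 20 cases, with a median log2 fold change of 0.15. GDF15 is also a member of this list. TP53INP1, which promotes p53-dependent death and autophagy, and BTG2, an antiproliferative gene, differed by 0.34 and 0.30, and PLK3, a stress-responsive kinase, by -0.52. BTG2 was not called without ketamine replicate 1.

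Genes that build ribosomes were called lower with ketamine more often than higher. This list of 45 genes was assembled after the values of RRP12 and BOP1 had been seen, so its counts are a description. Of 44 tested, 33 were called lower and 1 higher, with a median log2 fold change of -0.17, and 38 were called lower after the GC and length correction. RRP12 was at 71.0 and 71.6 CPM with ketamine, 114 and 118 CPM with E2 and 92.4 and 99.6 CPM with vehicle (log2 fold change -0.70, SE 0.036). BOP1, which processes the RNA of the large ribosomal subunit, was at 116 and 119 CPM with ketamine, 184 and 189 CPM with E2 and 160 and 149 CPM with vehicle. RRP9, a component of the U3 ribonucleoprotein, and RRS1, an assembly factor of the large subunit, differed by -0.45 and -0.42. In RRP12 and BOP1 vehicle lay between the treatments, unlike the median of the list, which was below vehicle by 0.49 on the log2 scale with ketamine (none called higher, 41 lower) and by 0.30 with E2 (10 higher, 28 lower). The only member called higher was NPM1, a nucleolar chaperone, with a log2 fold change of 0.17.

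Of 78 ribosomal protein genes tested, 36 were called higher and 15 lower with ketamine, with a median log2 fold change of 0.04. These were 46.15% and 19.23%, beside 16.1% and 18.5% of all genes. After the GC and length correction 24 were called higher and 26 lower, with a median of -0.008. The same correction called 1730 of all 16004 genes higher and 3689 lower, with a median of -0.036 over all genes. RPS24, RPL31 and RPL22 were higher by 0.24, 0.24 and 0.21. RPS10 was lower by 0.46 on the log2 scale, but it shares 730 of its 2318 exon bases with the read-through gene RPS10-NUDT3 on the same strand, and many ribosomal protein genes have near-identical copies elsewhere in the genome.

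**Figure D5:**
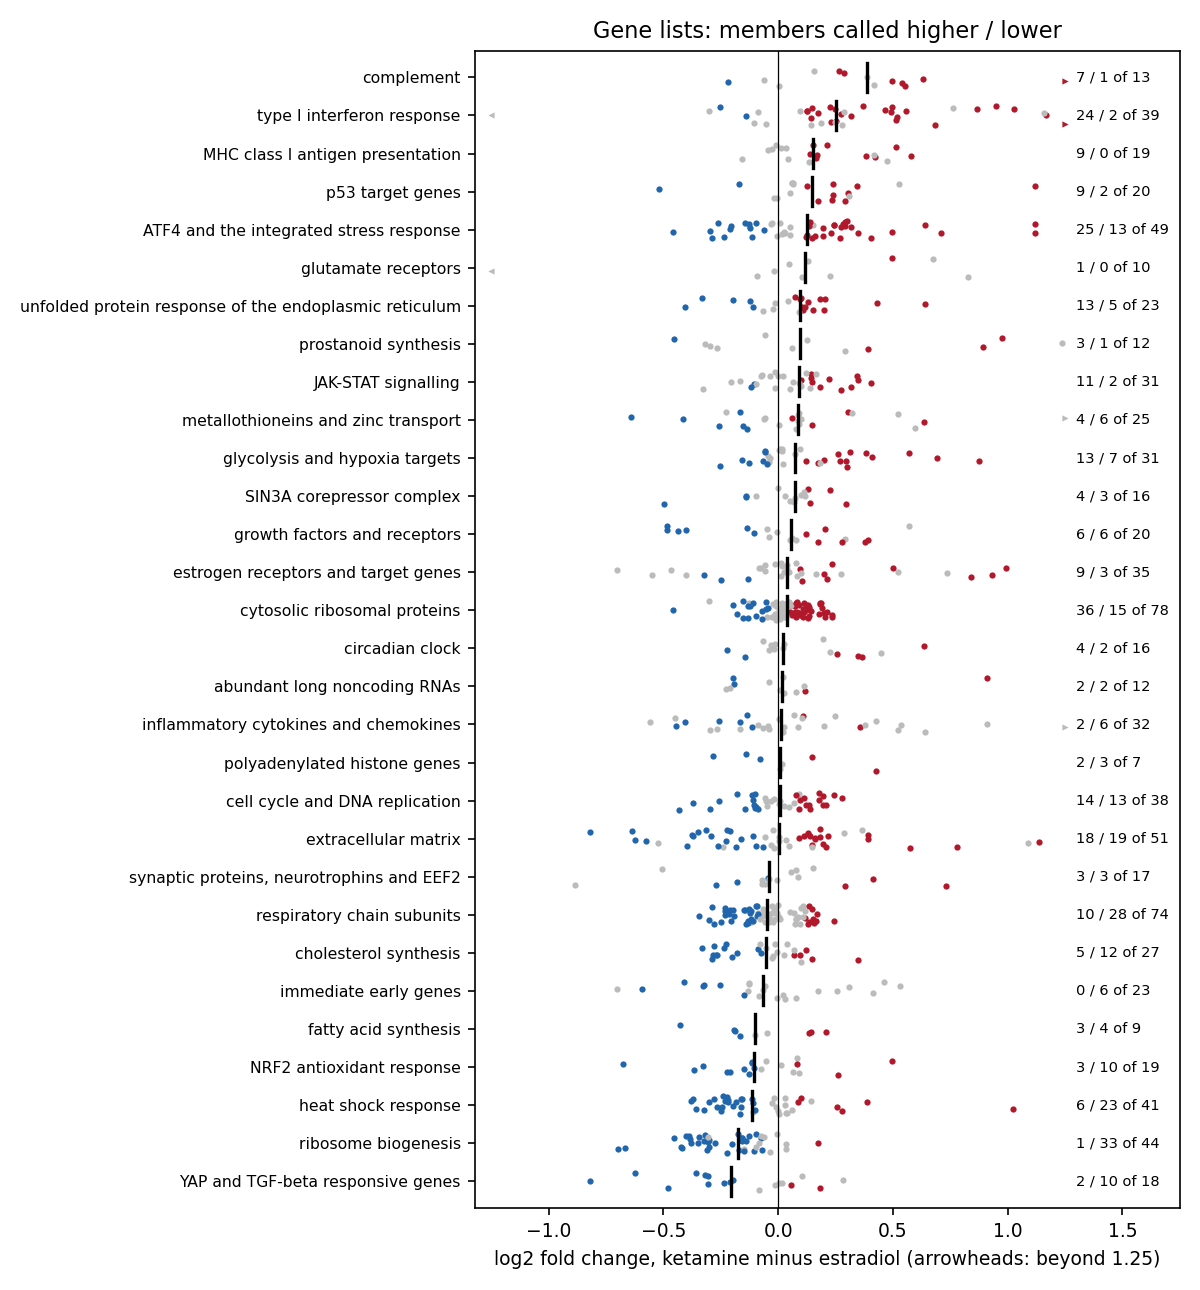
Log2 fold changes of ketamine minus E2 (x axis) for the tested members of the gene lists (rows) other than cell type markers. Red points were called higher with ketamine, blue lower and grey were not called, black bars are medians, arrowheads mark values beyond the axis, and the figures at the right give members called higher and lower of those tested. Of the lists shown, complement has the highest median at 0.39 and the genes responsive to YAP and TGF-beta the lowest at -0.20.

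Contractile and matrix genes that respond to YAP and TGF-beta, signals of cell tension and of growth factors, were called lower more often than higher with ketamine. Of 18 members, 2 were called higher and 10 lower, with a median log2 fold change of -0.20. With any 1 of the 4 libraries left out, 1 was called higher and 10 were called lower. Against vehicle, the median was -0.16 with ketamine and 0.10 with E2. THBS1, described above, belongs to this list. TAGLN, an actin-binding protein of smooth muscle, was at 1194 and 1221 CPM with ketamine, 1538 and 1558 CPM with E2 and 1403 CPM in both vehicle libraries (log2 fold change -0.36), although 2233 of its 6550 exon bases overlap PCSK7 on the opposite strand. ACTG2, smooth muscle gamma-actin, was lower by 0.48. The 2 members called higher were CTGF and LATS2, named after their values were seen, with log2 fold changes of 0.05 and 0.18. The sum of the fibroblast and pericyte markers was also lower with ketamine, by about as much as COL1A1 alone, at 4280 and 4366 CPM with ketamine and 5275 and 5312 CPM with E2. VIM, a cytoskeletal gene, was higher (0.07). Of the 8 markers tested 1 was called higher and 3 lower, the largest change was in COL1A1 (-0.29), and COL3A1, DCN and LUM were too low to test. The part of this in the result was not tested.

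Immediate early genes, which answer growth signals within minutes, were called lower in 6 of 23 cases and higher in none (1 without E2 replicate 2), with a median log2 fold change of -0.06. The lower calls were 26.1% of the list, beside 18.5% of all genes. FOSL1, an AP-1 subunit, was at 107 and 110 CPM with ketamine, 164 and 162 CPM with E2 and 142 CPM in both vehicle libraries (log2 fold change -0.59, SE 0.031). JUN was at 197 and 187 CPM with ketamine and at 242 and 240 CPM with E2. KLF2 and IER2 differed by -0.41 and -0.32. Of 20 growth factors and receptors, 6 were called higher and 6 lower (30% each, beside 16.1% and 18.5% of all genes), and 3 were higher without E2 replicate 2. NRG1, a ligand of ERBB receptors, IGFBP3, a carrier of insulin-like growth factors, HBEGF, a ligand of the EGF receptor, and FGF5 were all lower with ketamine, by 0.49, 0.48, 0.43 and 0.40 on the log2 scale. PDGFB, a ligand of PDGF receptors, was at 15.7 and 14.6 CPM with ketamine, 14 and 12.2 CPM with E2 and 6.62 and 5.72 CPM with vehicle, so that both treatments lay well above vehicle and differed little from each other (log2 fold change 0.21, adjusted p = 0.0382). PDGFB was not called without ketamine replicate 1 (0.15) or E2 replicate 2 (0.12).

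Of 51 members of the extracellular matrix list, 18 were called higher and 19 lower, with a median log2 fold change of 0.002, and 13 and 21 after the GC and length correction. Its ends were MMP2 at 1.14 and THBS1 at -0.82. TNXB, a tenascin, was higher by 0.78 and COL5A3 lower by 0.64 (adjusted p = 0.0433). COL5A3 was not called after the GC and length correction (adjusted p = 0.0625), and lost its call whichever of the 4 libraries was left out. Genes of hyaluronan metabolism were lower with ketamine in 4 of 6 tested members and higher in none. HAS2, a hyaluronan synthase, was at 3.30 and 3.42 CPM with ketamine, 4.47 and 4.38 CPM with E2 and 9.37 and 9.95 CPM with vehicle (log2 fold change -0.40, SE 0.12), so both treatments lay below vehicle. HAS2 was not called without ketamine replicate 1 (-0.37).

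Cholesterol synthesis genes were called lower in 12 and higher in 5 of 27 cases, with 15 and 1 after the GC and length correction, and 3 were higher whichever of the 4 libraries was left out. With all libraries and no correction, 44.4% of the cholesterol genes were lower and 18.5% higher, beside 18.5% and 16.1% of all genes. The correction also raised the lower calls over all genes, from 2962 to 3689. Of 9 fatty acid synthesis genes, 4 were called lower (44.4%) and 3 higher (33.3%), and 5 and 2 after the correction. SREBF1, a transcription factor of lipid synthesis, was at 163 and 165 CPM with ketamine and at 204 and 208 CPM with E2 (log2 fold change -0.33). The enzymes MVD and LSS differed by -0.29 and -0.28, while INSIG2, which retains sterol regulators in the endoplasmic reticulum, was higher (0.35). FASN, fatty acid synthase, was at 1663 and 1684 CPM with ketamine, 2251 and 2254 CPM with E2 and 1607 and 1581 CPM with vehicle, so that E2 lay above both ketamine and vehicle (log2 fold change -0.43, SE 0.024). ACLY and FADS2, an enzyme of acetyl-CoA supply and a desaturase, were each lower by 0.19, and ACSL1 was higher by 0.21 (0.13, not called, after the GC and length correction, and not called without ketamine replicate 2 or E2 replicate 2).

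Respiratory chain subunits were called lower in 28 of 74 cases and higher in 10, with a median log2 fold change of -0.05, and lower in 40 and higher in 3 after the GC and length correction. ATP5D, a subunit of ATP synthase, was at 137 and 141 CPM with ketamine and at 168 and 184 CPM with E2. NDUFB9 of complex I, whose exons overlap MTSS1 over 2001 bases, CYC1 of complex III and NDUFA3 of complex I differed by -0.30, -0.29 and -0.28. Of 15 hypoxia and glucose transport genes, 9 were called higher and 3 lower, while the glycolytic enzymes were called higher in 4 and lower in 4 of 16 cases, of which 1 was lower without ketamine replicate 1 or without E2 replicate 2, and 2 without either of the others. With all libraries, 60% of the hypoxia and transport genes were higher and 20% lower, beside 16.1% and 18.5% of all genes. For the glycolytic enzymes the share was 25% each way. CA9, a carbonic anhydrase induced by hypoxia, was at 3.83 and 4.10 CPM with ketamine and 2.19 and 2.12 CPM with E2, with 571 of its 1598 exon bases shared with ARHGEF39 on the opposite strand. ALDOC, an aldolase, was higher by 0.41 and was not called without E2 replicate 1 (0.19).

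Antioxidant genes under NRF2 were called lower in 10 and higher in 3 of 19 cases, with a median log2 fold change of -0.11. NQO1, a quinone reductase, was at 76.4 and 77.7 CPM with ketamine and at 100 and 98.6 CPM with E2 (log2 fold change -0.37). SLC7A11, the cystine transporter, went the other way at 20.7 and 21.3 CPM with ketamine, 15.8 and 14 CPM with E2 and 19.5 and 22.5 CPM with vehicle. Metallothioneins, which bind zinc, were called lower in 3 of 8 cases and higher in none by edgeR, where 1 had an unadjusted p under 0.05 and 1 was called higher after the GC and length correction. Of the zinc importers, 4 of 10 were called higher (2 without ketamine replicate 2 or E2 replicate 2) and 2 lower. With all libraries, 40% of the importers were higher and 20% lower, beside 16.1% and 18.5% of all genes. SLC39A10, a zinc importer, was at 37.9 and 41.0 CPM with ketamine and at 25.2 and 25.7 CPM with E2 (log2 fold change 0.64), and SLC30A1, a zinc exporter, was at 5.45 and 5.10 CPM with ketamine, 9.0 and 7.44 CPM with E2 and 13.3 CPM in both vehicle libraries (-0.64). MT1X was lower by 0.41 (0.23, not called, without E2 replicate 2), and the importer SLC39A11 was higher by 0.31. The metal response element core, searched as TGCNCNCG on both strands, occurred in 6 of the 18 promoter windows of the list, in 4 of 5 of members called lower and in none of 4 of members called higher, against 16.9% of all windows.

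Within the cell cycle list, DNA replication genes were called higher in 10 and lower in 5 of 18 cases, and mitosis genes higher in 4 and lower in 8 of 20. After the GC and length correction these became 7 and 4, and 1 and 14. The lower replication genes numbered 1 without E2 replicate 2 and 2 without ketamine replicate 1. MCM6, a subunit of the replicative helicase, was at 158 and 162 CPM with ketamine and at 128 and 136 CPM with E2. The mitotic genes CENPE, a kinesin of the kinetochore, PLK1, a mitotic kinase, and CDC20, an activator of the anaphase-promoting complex, were lower by 0.43, 0.37 and 0.30. Of the histone variant genes, H1F0, a linker histone of resting cells, was at 312 and 311 CPM with ketamine and 231 and 234 CPM with E2 (log2 fold change 0.42), and H2AFX was lower by 0.28. The circadian genes PER3, NR1D2 and BHLHE40 were higher by 0.37, 0.35 and 0.26, and in all 4 members of 16 were called higher (25% beside 16.1% of all genes) and 2 lower (12.5% beside 18.5%). None was lower without E2 replicate 1 and 1 was without each other library.

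Among inflammatory cytokines, chemokines and genes of NF-kappaB signalling, 2 of 32 tested were called higher and 6 lower, where 16.1% and 18.5% of all genes were. The higher calls fell to 1 without E2 replicate 2 and after the GC and length correction. LIF, a cytokine of the interleukin-6 family, was at 60.7 and 62.5 CPM with ketamine and at 85.0 and 82.6 CPM with E2 (log2 fold change -0.44). TNFAIP2 and TGFB1 were lower by 0.41 and 0.26, and the chemokine CXCL16 was higher by 0.36. LIF was at 51.19 and 50.55 CPM with vehicle. For LIF, TNFAIP2 and TGFB1 both treatments lay above vehicle, and E2 lay further above it than ketamine. Against vehicle, 10 members of the list were called higher and 2 lower with ketamine, and 12 and 2 with E2. Prostanoid synthesis genes were called higher in 3 and lower in 1 of 12 cases, beside 16.1% and 18.5% of all genes. PTGIS, prostacyclin synthase, was at 10.9 and 9.89 CPM with ketamine, 8.39 and 7.46 CPM with E2 and 3.74 CPM in both vehicle libraries (log2 fold change 0.39), PTGES differed by 0.98 at a mean of 1.03 CPM but was not called without E2 replicate 1 (0.87), and PTGES2 by -0.45.

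The receptors of E2 were scarce. ESR1 had 0 counts in the ketamine, E2 and vehicle libraries, where 3 counts correspond to 0.0350 and 0.0361 CPM with ketamine and 0.0481 and 0.0509 CPM with E2. ESR2 was at 0.327 and 0.482 CPM with ketamine and 0.593 and 0.475 CPM with E2, with overlapping libraries (log2 fold change -0.40, SE 0.42, adjusted p = 0.512). GPER1 was at 0.946 and 1.04 CPM with ketamine and 1.35 and 1.56 CPM with E2 and was not called (log2 fold change -0.55, SE 0.24, adjusted p = 0.077). Of 24 tested target genes known from cells with ESR1, 7 were called higher with ketamine (29.2% beside 16.1% of all genes) and 2 lower (8.33% beside 18.5%). DESeq2 called 4 higher and 2 lower, the GC and length correction left 6 and 4, and 3 were higher without E2 replicate 1 and 4 without either ketamine replicate. GREB1, such a target, was at 2.22 and 2.04 CPM with ketamine, 1.2 and 1.17 CPM with E2 and 1.24 and 1.11 CPM with vehicle, so that the E2 libraries overlapped vehicle and ketamine lay above both (log2 fold change 0.84, SE 0.22). PDZK1, higher by 0.50 (adjusted p = 0.04997, and 0.0994 after the GC and length correction), lost its call whichever of the 4 libraries was left out, and RARA, a retinoic acid receptor, was lower by 0.25. The full estrogen response element, GGTCA, any 3 bases and TGACC, was in none of the 26 promoter windows of this list and in 0.0659% of all windows. At so low a rate none was likely in 26 windows, so its absence does not set this list apart.

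Glutamate receptor genes were low. Of 23 genes, 10 were tested, of which 1 was called higher (10% beside 16.1% of all genes) and none lower (beside 18.5%). The gene called was GRIK4, a kainate receptor subunit, at 3.53 and 3.46 CPM with ketamine, 2.61 and 2.34 CPM with E2 and 1.23 and 1.66 CPM with vehicle (log2 fold change 0.49, adjusted p = 0.00966). It was not called without ketamine replicate 1 or E2 replicate 2. Of 7 NMDA receptor subunits, the channels that ketamine blocks, 5 were tested and none was called. BDNF, a neurotrophin, was at 34.5 and 32.5 CPM with ketamine, 24.5 and 25.9 CPM with E2 and 30.2 and 29.2 CPM with vehicle (log2 fold change 0.41, SE 0.056), with 988 of its 7740 exon bases shared with BDNF-AS. DLG4, a scaffold of the synapse, was at 26.6 and 26.8 CPM with ketamine, 20.5 and 23.2 CPM with E2 and 16.3 and 17.5 CPM with vehicle. SYN1 was not called (log2 fold change -0.51, SE 0.34, adjusted p = 0.27). EEF2, the elongation factor of translation, differed by -0.04 (adjusted p = 0.0425), a call that was lost in 11 of 16 alternative settings, and its kinase EEF2K was not called (log2 fold change 0.09, adjusted p = 0.138). AKT1, a kinase upstream of mTORC1, was at 339 CPM in both ketamine libraries and at 400.4 and 416 CPM with E2 (log2 fold change -0.27), and RPTOR, a subunit of mTORC1, was lower by 0.18. In the list of synaptic, neurotrophin and translation genes, 3 of 17 tested were called higher and 3 lower (17.6% each, beside 16.1% and 18.5% of all genes). Of 12 abundant long noncoding RNAs, 2 were called higher and 2 lower (16.7% each, beside 16.1% and 18.5% of all genes), and 1 and 4 after the GC and length correction, with 1 higher without either ketamine replicate or E2 replicate 2, and with SNHG1 and KCNQ1OT1 each lower by 0.19.

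The SIN3A corepressor complex, which removes histone acetylation, had 4 of 16 members called higher and 3 lower, beside 16.1% and 18.5% of all genes, and 2 and 4 after the GC and length correction. SIN3A itself was at 90.9 and 92.9 CPM with ketamine, 84.1 and 82.7 CPM with E2 and 100 and 104 CPM with vehicle (log2 fold change 0.14, SE 0.037, adjusted p = 0.00218), and after the GC and length correction it was not called (0.03, adjusted p = 0.487). BRMS1, a subunit known as a metastasis suppressor, was at 112 and 116 CPM with ketamine and at 164 and 159 CPM with E2 (log2 fold change -0.50). SUDS3 and the histone-binding subunit RBBP4 were higher by 0.29 and 0.23, and SIN3B was lower by 0.14.

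Of the few microglial or macrophage genes above the filter, CD14, a receptor for bacterial lipopolysaccharide, was at 3.41 and 3.90 CPM with ketamine, 2.08 and 2.59 CPM with E2 and 1.76 and 1.49 CPM with vehicle (log2 fold change 0.65, SE 0.17, adjusted p = 0.00262). CD14 was not called without ketamine replicate 2 (0.55) or E2 replicate 1 (0.50). The lysosomal protease gene CTSB, which many cell types express, was higher by 0.14. TUBB3, a neuronal tubulin that many cultured lines also express, was at 89.0 and 90.4 CPM with ketamine and at 129 and 130 CPM with E2 (log2 fold change -0.53), and it made up nearly all of the summed neuron markers. Of the 4 neuron markers tested, TUBB3 was called lower and the other 3 were not called. The median log2 fold change of the 4 was 0.20. None of 4 astrocyte, 2 oligodendrocyte and 3 endothelial markers tested was called by edgeR or DESeq2 with all libraries, 1 astrocyte marker was called higher by edgeR without ketamine replicate 1 and under upper-quartile scaling, and at an unadjusted p under 0.05 there were 2 astrocyte markers higher and 1 endothelial marker lower.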

How the data were processed

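Per the labels and the study's methods, libraries were made from total RNA with an Ovation kit (NuGEN) and sequenced in pairs of 100-base reads. The authors aligned reads to hg19 and deposited 1 table of raw counts per gene for 16 libraries, not normalized and with no columns of other samples (0). The submitters' processing notes name TopHat2 2.0.14, Bowtie2 2.2.6 and featureCounts 1.4.6, and strand handling is not given in the sources used here. Columns were matched to the labels by name. Of 25370 genes, 16004 passed edgeR's filter on low counts. The quasi-likelihood test of edgeR 4.0.16 (R 4.3.3, limma 3.58.1) was fitted over all 8 conditions with TMM scaling, 8 residual degrees of freedom and no replicate term, with p-values adjusted by Benjamini-Hochberg over all genes tested. CPM values were scaled with the TMM factors. In simulated data of the ketamine and E2 comparison over 15701 genes, edgeR recovered 88% of changes of 0.5 and 99% of changes of 1 on the log2 scale, with 14 false calls. DESeq2 1.42.0 recovered 85% and 98% over 16004 genes, with 6 false calls. The simulation changed 100 genes at each size, only genes with a mean above 1 CPM, and held no trend with GC content. Recovery below 1 CPM was not tested, where 97 of the 116 genes called at a log2 fold change of at least 1 lay. The false calls likewise hold only for data of that kind.

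Alternatives were DESeq2 (all or 4 libraries), edgeR on 4 libraries, other filters, upper-quartile or DESeq2 scaling, a replicate block, a loess correction for GC content and exon length (span 0.5), both together, halved counts, thinned counts and leaving out each library. Genes were named by rule. They were the 12 highest and 12 lowest log2 fold changes among called genes whose mean reached 5 CPM and whose libraries did not overlap, the 5 highest and 5 lowest of these with a mean of at least 100 CPM, up to 4 called members of each list with the largest change and a mean of at least 1 CPM, and 20 genes chosen by name. The comparison, the lists and the genes chosen by name were set with earlier results of these data known, and the list of ribosome biogenesis genes was added after its leading values had been seen. Gene coordinates are from GENCODE v44 mapped to GRCh37, and promoter sequences from RefSeq on GRCh38.p14. Values of some genes that the rule names are not reported here.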

Additional observations from a re-analysis of the deposited data

How the results depend on the processing

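Counts of called genes stayed within 1.5 times those reported (2582 higher, 2962 lower) in all 16 alternatives, from 1730 to 2999 higher and from 2264 to 3689 lower. With 1 library left out, 1887 to 2036 genes were called higher and 2264 to 2455 lower, with 60 to 88 and 30 to 36 at a log2 fold change of at least 1. The genes at that size were fewer with DESeq2 on all libraries (47 higher, 14 lower), with DESeq2 on the 4 libraries (25 and 5) and with at least 10 counts in every library (34 and 17), against 77 and 39. Similar totals do not mean the same genes. Of the 116 genes called at that size as reported, DESeq2 called 60 in the same direction on all libraries and 29 on the 4 libraries. Many of the 116 also lost their call with 1 library left out, while other genes entered. Counts halved gave 2674 higher and 3039 lower, and upper-quartile scaling 2999 and 2625. Replicates that share a number did not deviate together (correlation of the replicate differences of ketamine and E2, -0.0044), so the pairing has no support beyond the number. The fit with a replicate block called 2539 genes higher and 2934 lower, with 76 and 36 at a log2 fold change of at least 1. The mean distance between ketamine and E2 libraries was 1.218 times that between replicates, 1.147 times over the 500 most variable genes, where the pair was the 8th closest, and 1.176 times with a prior count of 0.5. Of 159 named genes tested, 153 were called as reported. Counting also genes that were not called and stayed so, 136 of the 159 had the reported outcome in all 16 alternatives. SNHG5, a small nucleolar RNA host gene called higher by 0.12 as reported, changed sign with the GC and length correction alone (-0.002086) and with the replicate block added (-0.00177). Calls were lost in 84 cases over 21 genes, among them EEF2 (11), COL5A3 (10), PDZK1 (10), IFITM1 (7), ERN1 (6), HLF (5) and PDGFB (4). STAT3 and MX2, not called as reported, were called in 8 cases. The cause was not tested. With 2 libraries a condition, changes in genes under 1 CPM rest on few counts.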

Other observations

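Several genes under a mean of 5 CPM, outside the rule for named genes and chosen after their values were seen, differed more than the leading genes of the report. DHRS3, which reduces retinal, was at 7.64 and 7.46 CPM with ketamine, 1.76 and 2.53 CPM with E2 and 1.14 and 1.06 CPM with vehicle, a log2 fold change of ketamine over E2 of 1.82 (edgeR, adjusted p = 3.319e-14). SMOC1, a secreted calcium-binding matrix protein, was at 4.78 and 4.46 CPM with ketamine, 1.27 and 0.831 CPM with E2 and 1.47 and 1.36 CPM with vehicle, so that only ketamine lay above vehicle. PDE4D, a phosphodiesterase that degrades cyclic AMP, was at 6.38 and 7.11 CPM with ketamine, 3.43 and 2.34 CPM with E2 and 5.03 and 4.3 CPM with vehicle. ARC, an activity-regulated gene of neurons, went the other way, at 1.86 and 2.24 CPM with ketamine, 4.69 and 5.72 CPM with E2 and 2.73 and 2.33 CPM with vehicle (log2 fold change -1.34).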
